A study of Bos taurus with 22 samples.

Results

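The 9 genes described here encode the enzyme switch that takes a cell into mitosis and the kinases and checkpoint proteins that carry it through: CDK1, CCNA2, CCNB1, CCNB2, AURKA, AURKB, BUB1, BUB1B and CDC20. They were chosen from 10 named mitotic genes as those with a symbol in the held rows of the study's gene table, which are the rows with the smallest p-values for fertility group. PLK1, polo-like kinase 1, was the remaining gene of the 10. It had no such row and was not analysed here. Because the fertility contrast took part in the choice, its values below are a description with no test. All 9 members were among the 13526 genes tested of 27607 genes counted. The choice favours this, since the study's gene table covers genes that had already passed a similar filter on low counts.

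RNA was sequenced from circulating white blood cells of 22 purebred heifers, 1 library each, sampled at the first artificial insemination. The groups were 5 Holstein Fertile, 5 Holstein Sub-Fertile, 5 Angus Fertile and 7 Angus Sub-Fertile heifers. Fertile heifers of both breeds became pregnant and calved after the first service. Sub-Fertile Holstein heifers needed at least 4 inseminations, and Sub-Fertile Angus heifers did not conceive after 2 inseminations and a bull. All heifers had received a progesterone device and hormone injections to time ovulation. The device stayed in for 5 days in Holstein heifers, aged 12 months on average, and for 7 days in Angus heifers, aged 14 months on average. Breed, age, hormone schedule, herd management and the criterion for Sub-Fertile therefore cannot be told apart.

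CDK1 is a kinase that works only when bound to a cyclin. Cyclin A2 serves in DNA replication and entry into mitosis, and cyclins B1 and B2 form the main mitotic enzyme with CDK1. Aurora A builds the spindle poles and aurora B corrects the attachment of chromosomes to the spindle. BUB1 and BUB1B (BubR1) hold back anaphase until all chromosomes are attached, and CDC20 activates the ubiquitin ligase that then destroys cyclin B. Transcripts of these genes accumulate in dividing cells in G2 and M phase and are scarce in resting cells. Most leukocytes in blood do not divide, so the level in a blood sample depends on which cells are present. In such bulk samples, fewer cells of a type and less RNA per cell cannot be told apart.

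Total counts ranged from 12182400 to 49228035 per heifer. From the counts of all genes with a mean above 20 CPM (counts per 1000000), 8 close pairs of heifers were found among 231 pairings. The biological coefficient of variation within a close pair, which is the spread left after counting error, was 0.0377 to 0.0828, against 0.0981 to 0.261 in the other pairings. Close pairs were defined by a low value of this coefficient, so the gap between these ranges follows in part from the definition. Both breeds were present in 4 of the 8 pairs and both fertility groups in 6, and 0 pairs had their heifers in the same group. The median chi-square over genes between the counts of a close pair was 2.33 to 8.38 times what sampling noise gives, against a median of 24.2 in the other pairings. The 2 ranges overlap, as heifers 6 and 12, which are not a close pair, had 6.03. Such a ratio does not show that the heifers of a pair are independent samples. Every heifer was kept as a sample of its own, and values were also taken with 1 heifer per pair. What made the pairs alike was not tested. Heifers 10 (Holstein Fertile) and 18 (Angus Fertile) are 1 of these pairs, and results that rest on them are given with and without them.

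The members lie on 8 chromosomes of the ARS-UCD1.2 assembly, and their positions are those of whole genes in the Ensembl annotation. CDK1 (ENSBTAG00000010109) spans 16488142 to 16582565 on chromosome 28. Among the cyclins, CCNA2 (ENSBTAG00000004943) spans 3425574 to 3431686 on chromosome 6, CCNB1 (ENSBTAG00000014239) 10507979 to 10517702 on chromosome 20, and CCNB2 (ENSBTAG00000005269) 51184626 to 51209368 on chromosome 10. AURKA (ENSBTAG00000013009) spans 59555286 to 59570430 on chromosome 13 and AURKB (ENSBTAG00000001717) 27835752 to 27840596 on chromosome 19. BUB1 (ENSBTAG00000021181) spans 1585412 to 1618575 on chromosome 11, and BUB1B (ENSBTAG00000007237) spans 35786200 to 35841256 on chromosome 10, away from CCNB2. CDC20 (ENSBTAG00000009819) spans 102655232 to 102659704 on chromosome 3. The features counted were genes, so a count covers the exons of all transcripts of a gene.

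All 9 members were measured in every heifer, with 92 to 3121 counts. Levels of the members are given in CPM, the count scaled to a library of 1000000 counts, and compared between genes only after division by the annotated transcript length. Per kilobase, the median over 22 heifers was highest for CCNB1 at 13.8 CPM, followed by CDC20 at 11.2, CCNA2 at 10.8, AURKB at 9.11, BUB1 at 9.01, CCNB2 at 8.82, CDK1 at 6.14, AURKA at 5.97 and BUB1B at 4.87 CPM. The catalytic subunit CDK1 was thus below each of its 3 cyclin partners. The order of neighbours was the same in most heifers between CCNB1 and CDC20 (21 of 22 heifers), CCNA2 and AURKB (20 of 22), CCNB2 and CDK1 (22 of 22), and AURKA and BUB1B (21 of 22). It was not settled between CDC20 and CCNA2 (15 of 22), AURKB and BUB1 (14 of 22), BUB1 and CCNB2 (10 of 22), or CDK1 and AURKA (12 of 22).

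The most visible feature of the family was a pair of heifers. Heifer 10 ranked first and heifer 18 second for all 9 members. Against the median of the other 20 heifers, heifer 10 was 2.30 to 2.86 times as high and heifer 18 2.24 to 2.78 times as high. Among the other 20 heifers the highest was 1.68 (BUB1) to 2.79 (CDC20) times the lowest. The next highest was heifer 9 (Holstein Fertile) for 6 members, heifer 2 (Holstein Sub-Fertile) for CCNB2 and CDC20, and heifer 22 (Angus Fertile) for BUB1. Heifer 6, also Holstein Fertile, was lowest for 4 members. Of all 13526 genes tested, 6.59% had heifers 10 and 18 as their highest 2 and 4.07% as their lowest 2. The members have a symbol here only through a small fertility p, and both heifers are Fertile. The choice of members therefore favours this pattern, and nothing is read from these shares.

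**Figure D1:**
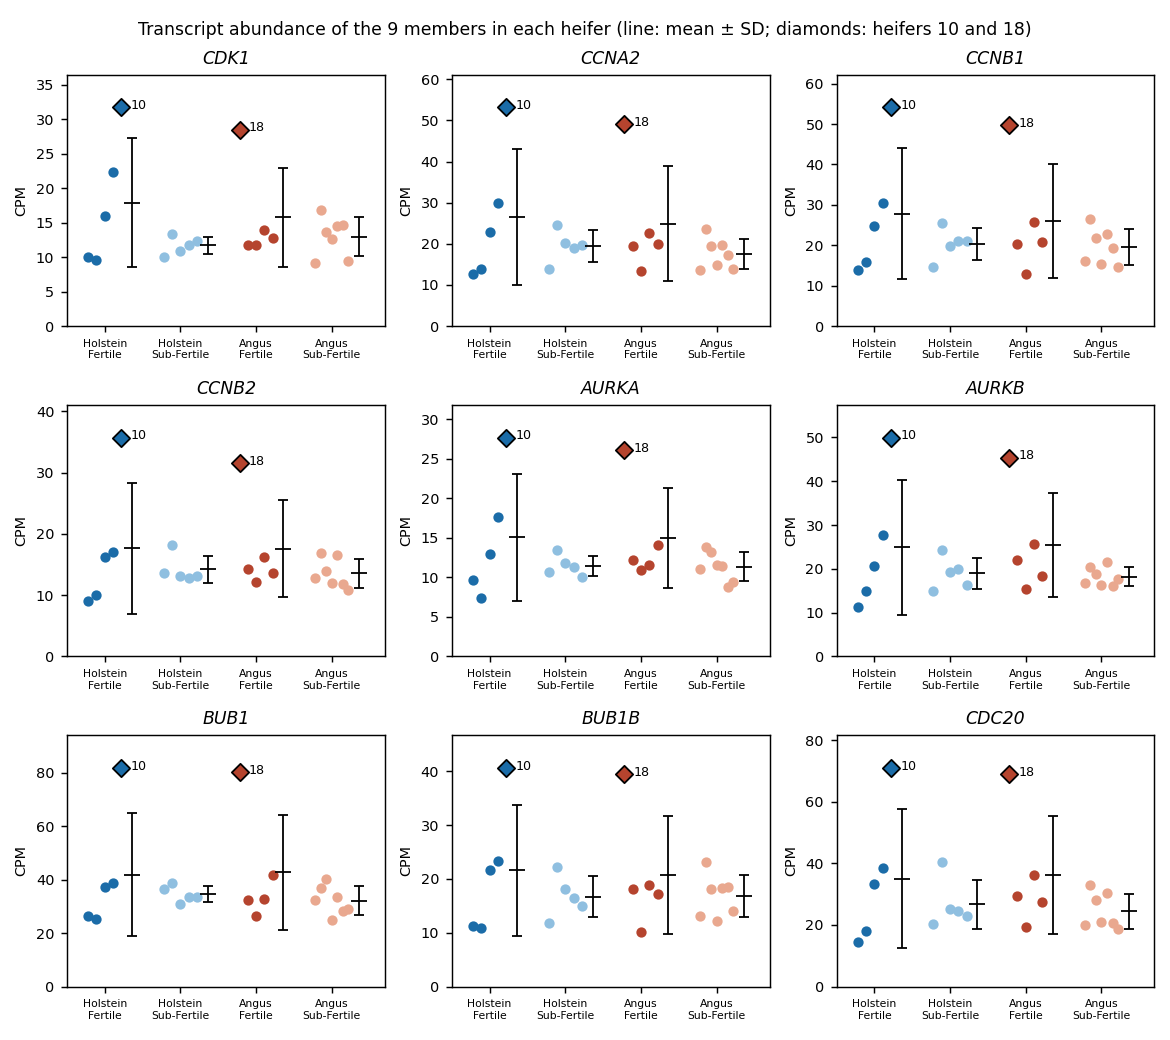
Transcript abundance in CPM (linear axes from 0) of the 9 members, with 1 point per heifer in the 4 groups, and mean ± SD beside each group. Diamonds mark heifers 10 and 18, which sit above the other 20 heifers in every panel, from 26.1 CPM for AURKA to 81.9 CPM for BUB1.

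CDK1 is the catalytic kinase of the switch. Its level was 9.95, 9.52, 15.9, 22.4 and 31.7 CPM in Holstein Fertile heifers 6 to 10, against 10.0, 13.3, 10.9, 11.8 and 12.4 CPM in Holstein Sub-Fertile heifers 1 to 5. In Angus Fertile heifers 18 to 22 it was 28.5, 11.7, 11.8, 14.0 and 12.8 CPM, against a lowest of 9.08, a median of 13.6 and a highest of 16.8 CPM in the 7 Angus Sub-Fertile heifers. The Holstein Fertile group held both the highest heifer and heifers as low as any Sub-Fertile Holstein. In Angus, 4 of the 5 Fertile heifers lay within the Sub-Fertile range, which leaves heifer 18.

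The cyclins showed the same heifers at the top. CCNB1, the cyclin of the main mitotic enzyme, was at 14.0, 15.9, 24.8, 30.4 and 54.1 CPM in Holstein Fertile heifers 6 to 10, against 14.6, 25.6, 19.8, 21.05 and 20.995 CPM in Holstein Sub-Fertile heifers 1 to 5. In Angus Fertile heifers 18 to 22 CCNB1 was at 49.8, 20.3, 12.8, 25.8 and 20.9 CPM, against 14.7 to 26.4 CPM (median 19.3) in Angus Sub-Fertile heifers. Fertile Holstein heifers spanned a wider range than Sub-Fertile ones, at both ends. CCNA2, the cyclin of S phase and G2, averaged 26.5 ± 16.5 CPM in Holstein Fertile and 19.5 ± 3.79 CPM in Holstein Sub-Fertile heifers (SD, n = 5 each). It averaged 24.9 ± 14.0 CPM in Angus Fertile (n = 5) and 17.5 ± 3.68 CPM in Angus Sub-Fertile heifers (n = 7). CCNB2, the second B-type cyclin, was at 31.5 to 35.7 CPM in heifers 10 and 18, against 9.08 to 18.2 CPM in the other 20. The ranges of Fertile and Sub-Fertile heifers overlapped for each cyclin in both breeds.

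In both aurora kinases heifers 10 and 18 led and heifer 9 came next. AURKA was at 7.42 to 27.7 CPM over all heifers and averaged 15.1 ± 8.04 CPM in Holstein Fertile against 11.5 ± 1.28 CPM in Holstein Sub-Fertile heifers (SD, n = 5 each). AURKB was at 11.2, 14.9, 20.6, 27.8 and 49.98 CPM in Holstein Fertile heifers 6 to 10, against 14.8, 24.2, 19.3, 20.1 and 16.3 CPM in Holstein Sub-Fertile heifers 1 to 5. In Angus Fertile heifers 18 to 22 AURKB was at 45.4, 22.03, 15.4, 25.8 and 18.3 CPM, against 16.1 to 21.4 CPM (median 17.6) in Angus Sub-Fertile heifers. For AURKB, 3 Angus Fertile heifers (18, 19 and 21) were above all 7 Angus Sub-Fertile heifers, and heifer 20 was below them.

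The checkpoint kinase BUB1 had the smallest ratio of highest to lowest heifer of the 9 outside heifers 10 and 18, at 1.68. It was at 26.5, 25.3, 37.3, 38.7 and 81.9 CPM in Holstein Fertile heifers 6 to 10, against 36.5, 38.7, 30.8, 33.7 and 33.6 CPM in Holstein Sub-Fertile heifers 1 to 5. In Angus Fertile heifers 18 to 22 BUB1 was at 80.1, 32.5, 26.4, 32.9 and 41.6 CPM, against 24.7 to 40.2 CPM (median 32.5) in Angus Sub-Fertile heifers. BUB1 thus had 20 heifers close together and 2 far above them. Its relative BUB1B, which binds CDC20 and keeps it inactive, was at 40.7 and 39.5 CPM in heifers 10 and 18, against 10.2 to 23.4 CPM in the other 20.

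CDC20, the activator of the anaphase-promoting complex and a direct target of that checkpoint, had the widest spread of the members. It was at 14.5, 18.1, 33.2, 38.3 and 71.0 CPM in Holstein Fertile heifers 6 to 10, against 20.4, 40.4, 25.2, 24.4 and 22.9 CPM in Holstein Sub-Fertile heifers 1 to 5. In Angus Fertile heifers 18 to 22 CDC20 was at 68.9, 29.4, 19.3, 36.1 and 27.6 CPM, against 18.7 to 32.8 CPM (median 20.8) in Angus Sub-Fertile heifers. In Angus, heifers 18 and 21 were above the Sub-Fertile range and the other 3 Fertile heifers were inside it.

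**Figure D2:**
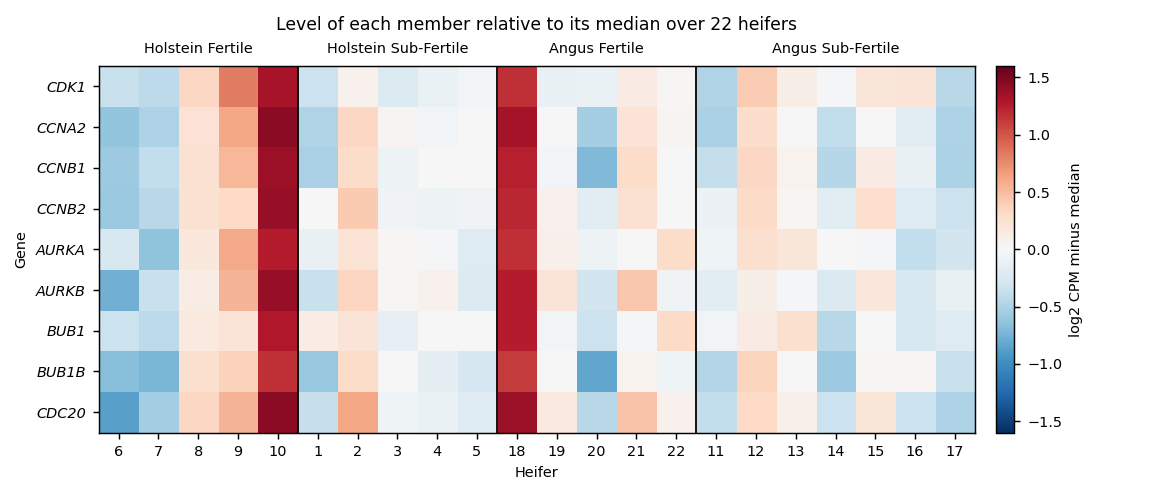
Level of each member (rows) in each heifer (columns, grouped by breed and fertility) as log2 CPM minus the gene's median over 22 heifers. Columns 10 and 18 are high in all 9 rows, column 9 is the next highest in 6 rows, and the other columns lie on both sides of the median in all 4 groups.

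The comparison of breeds asks whether the family was set at a different level in Holstein and Angus heifers, and the choice of members did not use it. In the edgeR quasi-likelihood test with fertility group in the model, 0 of 9 members passed at a Benjamini-Hochberg adjusted p under 0.05. Over all genes 0% passed, with a lowest adjusted p of 0.437. At an unadjusted p under 0.05 there were 0 members, against 10.6% of all genes. The DESeq2 Wald test called 0 members, against 0.0739% of all genes adjusted and 12.9% unadjusted. CDK1 had a log2 fold change of 0.017 (SE 0.20, adjusted p = 0.981), with 14.8 ± 7.08 CPM in Holstein (SD, n = 10) and 14.1 ± 5.02 CPM in Angus heifers (n = 12). CCNA2 had the largest, 0.13 (SE 0.23, adjusted p = 0.844), with 22.99 ± 11.9 CPM in Holstein and 20.6 ± 9.64 CPM in Angus heifers. The other members lay between them, and the median of the 9 was 0.048 against −0.013 over all genes. All 9 estimates were above 0, as were 45.9% of those over all genes, but the members move together and are not separate evidence. The 95% intervals ran from at least −0.44 to at most 0.60 on the log2 scale, so the data do not show that the breeds have the same level. Heifers 10 and 18 stand 1 in each breed. With 1 heifer per close pair, which keeps heifer 10 and drops heifer 18, the median log2 fold change was 0.40, and without both heifers it was 0.032, with 0 members called in either fit.

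The interaction of breed and fertility asks whether the Fertile over Sub-Fertile difference itself differed between the breeds. In the edgeR quasi-likelihood test 0 of 9 members passed at an adjusted p under 0.05, against 0% of all genes. At an unadjusted p under 0.05 it was 0 members against 10.4%, and the DESeq2 Wald test also gave 0 members, against 12.3% unadjusted. The difference of log2 fold changes, Holstein minus Angus, ran from −0.16 for CDC20 (SE 0.49, adjusted p = 0.918) to 0.34 for CDK1 (SE 0.40, adjusted p = 0.751), with a median of −0.048. For CDK1 the fertility log2 fold change was 0.63 in Holstein heifers alone and 0.28 in Angus heifers alone. The 95% interval of the CDK1 difference ran from −0.48 to 1.17, and intervals of this width cannot show that the breeds were alike. The CDK1 difference was 0.026 without heifer 10, 0.67 without heifer 18 and 0.35 without both. With 1 heifer per close pair the median of the 9 differences was 0.44.

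**Figure D3:**
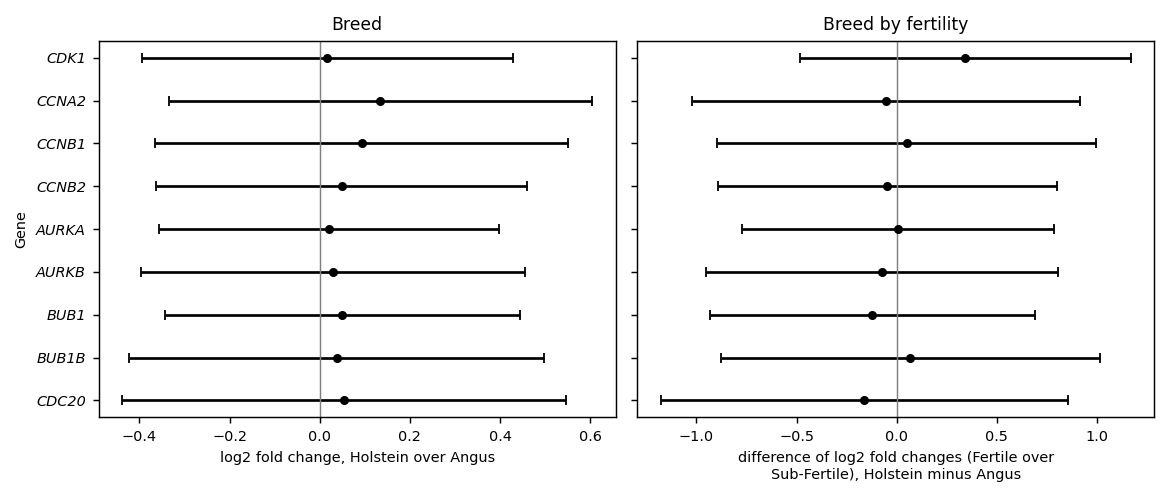
Log2 fold change of each member between Holstein and Angus heifers (left) and the difference between the breeds of the Fertile over Sub-Fertile log2 fold change (right), with 95% intervals from the edgeR fit over 22 heifers. Every interval includes 0, and the breed intervals reach from −0.44 to 0.60.

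Fertile heifers averaged more of every member than Sub-Fertile heifers, which is what the choice of members used. The log2 fold change over both breeds was 0.44 for CDK1 (SE 0.20), 0.48 for CCNA2 (SE 0.23), 0.43 for CCNB1 (SE 0.22) and 0.35 for CCNB2 (SE 0.20). It was 0.40 for AURKA (SE 0.18), 0.44 for AURKB (SE 0.20), 0.35 for BUB1 (SE 0.19), 0.34 for BUB1B (SE 0.22) and 0.49 for CDC20 (SE 0.24). These are 1.26 to 1.40 times. BUB1B has the smallest of these values, and PLK1, outside the choice, has no value here. All 9 were above 0, as were 49% of all genes, while 0 were below 0, as were 51% of all genes, and nothing is read from these counts.

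Most of this difference went with heifers 10 and 18. Without heifer 10 the median of the 9 log2 fold changes was 0.26, without heifer 18 it was 0.26, and without both it was 0.069, with a range from −0.032 (BUB1B) to 0.12 (CDK1) and 6 of 9 above 0. The levels show the same. CDC20 averaged 35.6 ± 19.7 CPM in 10 Fertile heifers (SD) and 25.4 ± 6.46 CPM in 12 Sub-Fertile heifers, and 27.1 ± 8.88 CPM in the 8 Fertile heifers that remain without the pair. BUB1 averaged 42.3 ± 21.1 CPM in Fertile and 33.2 ± 4.51 CPM in Sub-Fertile heifers, and 32.6 ± 6.20 CPM in the 8 remaining Fertile heifers. With 1 heifer per close pair, which keeps heifer 10 and drops heifer 18, the median log2 fold change was 0.32. The 9 values ran from 0.12 (BUB1B) to 0.37 (CDK1), with 9 of 9 above 0. A fit with the close pairs as blocks and breed as a term compares the Fertile with the Sub-Fertile heifer of the 6 mixed pairs. It gave log2 fold changes from −0.24 (CDK1) to −0.014 (AURKA), with a median of −0.17. Heifers 10 and 18, both Fertile, form a pair of their own, and Fertile heifers 9 and 21 have no close partner. Mixed pairs 8 and 12 and 7 and 16 differ in breed as well. Heifers 10 and 18 therefore enter the block contrast only through their difference, by way of the breed term. The high level they share does not enter it, nor does heifer 9. Heifers 10, 18 and 9 ranked 1, 2 and 3 by the members' mean log2 CPM. Fertile heifers 20, 7 and 6, ranked 20, 21 and 22, stay in the contrast, so it weighs the heifers otherwise than the fit over all 22. Fertile and Sub-Fertile ranges overlapped for all 9 members in both breeds. Over all genes, the Fertile range lay wholly above the Sub-Fertile range for 0.932% in Holstein and 0.0518% in Angus heifers, and wholly below it for 0.421% in Holstein and 0.037% in Angus heifers.

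**Figure D4:**
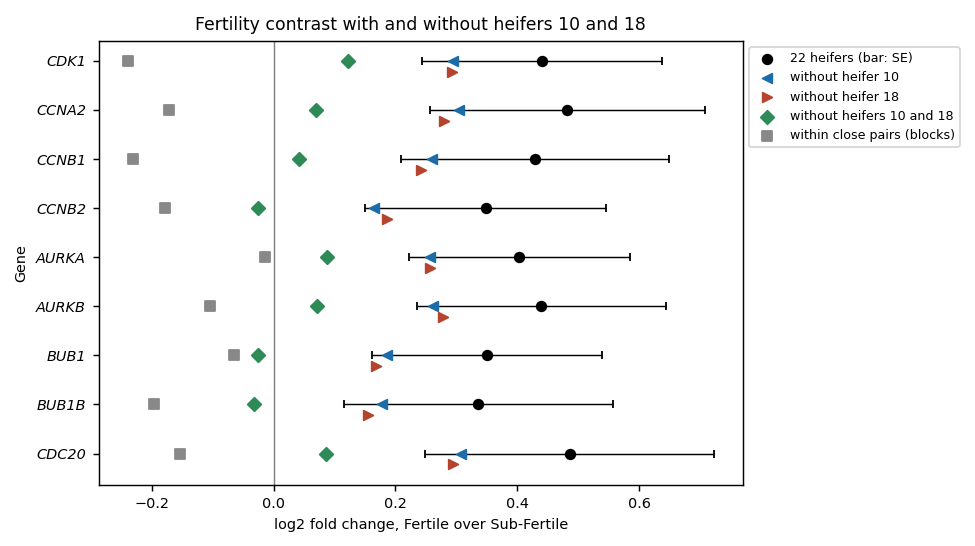
Log2 fold change of each member, Fertile over Sub-Fertile, over 22 heifers (circles, bars ± SE), without heifer 10 or 18 (triangles), without both (diamonds) and with close pairs as blocks (squares). The median is 0.43 over 22 heifers, 0.069 without both heifers and −0.17 with blocks, a description since this contrast took part in choosing the genes. With blocks, Fertile heifers 9 and 21 do not enter the contrast, and heifers 10 and 18 enter only through the breed term.

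Within groups, the members varied more between heifers than most genes did. With group means taken out, the SD of log2 CPM was 0.45 (AURKA) to 0.59 (CDC20), against a median of 0.22 over all genes, and these values stood at the 83.2 to 91.8 percentile of all genes. Counting error alone would give an SD of 0.054 (BUB1) to 0.092 (AURKA), well under the SD measured. Without heifers 10 and 18 the SD was 0.24 (BUB1) to 0.43 (CDC20), at the 58.1 to 83.7 percentile. CDC20 was the most variable member with and without them. The least variable was AURKA with them and BUB1 without.

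The members also moved together. The correlation of log2 CPM over 22 heifers, group means taken out, had a median of 0.92 over the 36 pairs of members and ran from 0.84 to 0.99, while the median over all pairs of genes was 0.051 and the 99th percentile 0.73. A single component held 93% of the members' variance, and 83.4% without heifers 10 and 18. The points are 22 libraries that include close pairs and share their depth, so these values are a description. Without heifers 10 and 18 the median was 0.81, with a range from 0.57 to 0.98, and with 1 heifer per close pair it was 0.91. Over all pairs of genes without heifers 10 and 18 the 95th percentile was 0.587 and the 99th 0.741. The lowest pair of members, at 0.571, was below the first of these. CCNA2 and CCNB1 were the tightest pair with all heifers (r = 0.99) and without heifers 10 and 18 (r = 0.98). CDK1 and BUB1 were the loosest in both (r = 0.84 and r = 0.57).

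Ratios within a heifer, which cancel library size, show where members parted. CCNA2 over CCNB1 had a median of 0.94 and stayed between 0.85 and 1.04 in all heifers, with an SD of the log2 ratio of 0.075, under the 0.099 that counting error alone would give. At this depth no difference between heifers in that ratio was detectable. The other 35 ratios had SDs up to 0.29, above their counting error. BUB1 over BUB1B had a median of 2.03 and ran from 1.52 in heifer 16 to 3.08 in heifer 1. Heifer 11, the close partner of heifer 1 and of the other breed, had 2.49, while heifers 10 and 18 had 2.01 and 2.03, near the median. CDK1 over CCNA2 had a median of 0.68 and was highest in heifer 20 (0.88). Its close partner, heifer 14, had 0.84, as did heifer 16, whose close partner, heifer 7, had 0.69. CDK1 over CCNA2 was 0.60 and 0.58 in heifers 10 and 18. For BUB1 over BUB1B the median absolute difference of the log2 ratio was 0.12 within close pairs and 0.26 in other pairings. Heifers 10 and 18 thus had more of all 9 transcripts in proportions that lay inside the range of the other heifers for these 3 ratios.

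**Figure D5:**
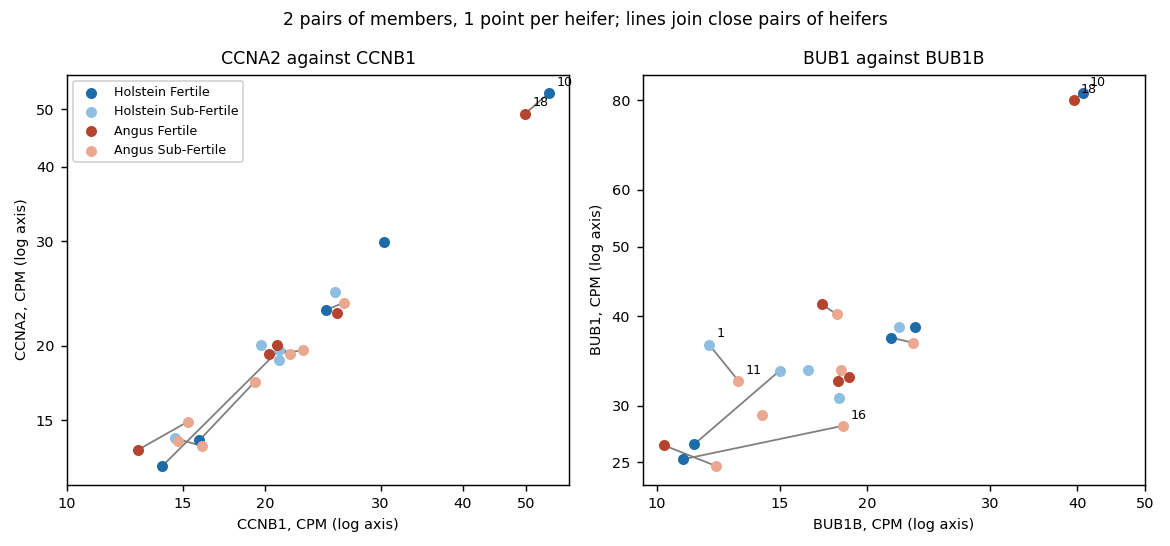
CCNA2 against CCNB1 (left) and BUB1 against BUB1B (right) in CPM on log axes, 1 point per heifer, with grey lines joining close pairs. CCNA2 and CCNB1 lie on a single line with ratios of 0.85 to 1.04, while BUB1 over BUB1B spreads from 1.52 in heifer 16 to 3.08 in heifer 1.

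Close pairs were nearer than other pairings in the level of the family, which the way they were found favours. The mean log2 CPM of the members differed by a median of 0.087 within the 8 close pairs and of 0.39 in the other 223 pairings. Summed over the 9 members, heifers 10 and 18 had 446 and 419 CPM, heifers 1 and 11 had 147 and 145 CPM, and heifers 13 and 22 had 187 and 186 CPM. Pairs 5 and 6 and 7 and 16 differed more, with 164 and 119 CPM in heifers 5 and 6 and 126 and 156 CPM in heifers 7 and 16. The close pairs were found from all genes with a mean CPM above 20, which include CCNA2, CCNB1, AURKB, BUB1 and CDC20 but not the other members. The other members move with these, so the likeness is no separate result.

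Sequencing depth was compared with the members' levels. Over 22 heifers with group means taken out, Pearson's r of log2 CPM with log2 total counts was 0.028 to 0.31 and Spearman's rho −0.033 to 0.33. In permutation tests (100000 resamples, two-sided, 9 relations), p for r was 0.161 to 0.902, and 0.843 to 0.902 after Benjamini-Hochberg adjustment, and the adjusted p for rho was 0.992 to 0.996. Without heifers 20 and 21, the farthest from the median depth, r was 0.055 to 0.33, and without heifers 10 and 18 it was −0.14 to 0.32. Heifers 10 and 18 had 38118108 and 20996745 counts, so neither was at an end of the range.

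The 12 named genes outside the members whose pattern was most like the mean of the 9, by correlation over 22 heifers with group means taken out, were TPX2 (r = 0.996), KIF4A (0.986), UBE2C (0.982), NCAPG2 (0.981), CDCA2 (0.981), SPAG5 (0.980), RRM2 (0.980), ASF1B (0.977), KIF2C (0.977), BIRC5 (0.976), EZH2 (0.974) and MKI67 (0.974). TPX2 activates aurora A on the spindle, UBE2C loads ubiquitin for the anaphase-promoting complex, BIRC5 (survivin) is a partner of aurora B, and MKI67 encodes the proliferation marker Ki-67. RRM2 and ASF1B serve DNA synthesis and histone supply rather than mitosis. The 12 are also the top 12 of all 13517 other genes, named or not. Correlations above 0.9 were found for 138 genes (1.02%), of which 102 have a name here, and for 48 genes without heifers 10 and 18, all of them among the 138. TPX2 and KIF4A stayed first and second (0.994 and 0.980), and MKI67 moved to rank 26. Names came only from genes of small fertility p, so unnamed genes are missing from this account.

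Other genes of the mitotic cycle were taken from lists by role: of 99 listed genes 50 had a name and passed the filter. For breed, 0 of the 50 passed in either direction at an adjusted p under 0.05, against 0% of all genes, or at an unadjusted p under 0.05, against 10.6% of all genes (edgeR). Their median log2 fold change was 0.057. Among regulators of the mitotic entry switch (5 of 12 named), CCNF had −0.072 (SE 0.081), CKS1B, a CDK-binding subunit, 0.089 (SE 0.14), and NEK2 0.081 (SE 0.23). Among aurora partners (5 of 6 named) BIRC5 had 0.12 (SE 0.20), TPX2 0.079 (SE 0.18) and HASPIN, which marks histone H3 for aurora B, 0.073 (SE 0.21). TTK, the kinase that starts the spindle checkpoint, had 0.13 (SE 0.25) and was the single checkpoint gene named of 8. Of 6 named among 18 genes of the anaphase-promoting complex and its substrates, UBE2S had −0.13 (SE 0.13), CDC23 −0.044 (SE 0.071) and ESPL1, separase, 0.10 (SE 0.22). None of these breed differences passed the test.

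The same lists were read for heifers 10 and 18. The pair was the highest 2 of 22 heifers for 48 of the 50 named genes, against 6.59% of all genes tested. Only genes of small fertility p have a name here and both heifers are Fertile, so the choice of genes favours such a count and nothing is read from it. The exceptions were CDC23, a core subunit of the anaphase-promoting complex, and CDKN1B (p27), an inhibitor of CDKs in resting cells. CDKN1B was at 172 and 145 CPM in heifers 10 and 18, against 129 to 216 CPM in the other 20. For the transcription factors of mitotic genes, FOXM1 was at 23.9 and 21.9 CPM in heifers 10 and 18 against 6.14 to 12.4 CPM in the other 20, and MYBL2 at 109 and 102 CPM against 25.3 to 64.6 CPM. Of G1 and S phase genes, CCNE1, the cyclin of S phase entry, was at 24.6 and 25.01 CPM against 8.45 to 15.7 CPM, and CCND2 at 81.8 and 76.3 CPM against 43.5 to 67.5 CPM. Summed over 10 MCM and GINS genes of the replicative helicase, heifers 10 and 18 were 1.96 and 1.90 times the median of the other 20, and over 6 genes of deoxynucleotide synthesis 1.93 times each. For 10 genes of mitotic chromosomes and the spindle, which include KIF20A, DLGAP5 and ANLN, the sums were 2.56 and 2.40 times that median. At an unadjusted p under 0.05 for the interaction there was 1 gene of the 50, CDKN1B, a share below the 10.4% of all genes. Its log2 difference was 0.28 (SE 0.12), and its adjusted p in the edgeR quasi-likelihood test was 0.463.

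Of 48 marker genes of blood cell types, 5 had a name here, and 0 of those were markers of monocytes, T cells, B cells, natural killer cells, granulocyte precursors or red cell precursors. The labelled cell type could therefore be checked only in part. CSF3R, the receptor of granulocyte colony-stimulating factor on neutrophils, was at 241 and 222 CPM in heifers 10 and 18 against 114 to 511 CPM in the other 20, inside their range. MMP9, the other neutrophil marker, was at 0.916 and 0.695 CPM against 0.442 to 4.92 CPM. Levels of list and marker genes were taken back from log2 CPM with its prior count of 2, which raises low values such as these. The platelet markers were also inside the range of the other 20, at 57.9 and 56.2 CPM against 32.6 to 69.4 CPM for ITGA2B and at 4.49 and 3.89 CPM against 0.698 to 5.99 CPM for GP9. MZB1, a protein of antibody-secreting plasma cells and their precursors and the single plasma cell marker named of 5, was at 136 and 143 CPM in heifers 10 and 18 against 37.0 to 124 CPM in the other 20. Its correlation with the members' mean was 0.74 over 22 heifers and 0.63 without heifers 10 and 18. In the fertility contrast, where the members' log2 fold changes were 0.34 to 0.49, those of the markers, Fertile over Sub-Fertile, were −0.43 for CSF3R, −0.74 for MMP9, 0.41 for MZB1, 0.28 for ITGA2B and 0.63 for GP9. These markers too have a name only through a small fertility p, and their values are a description. The part of any cell type in the members' levels was not tested.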

How the data were processed

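White blood cell RNA of 22 heifers was sequenced from poly(A) libraries. The authors aligned reads to ARS-UCD1.2 with HISAT2, filtered them with SAMtools, removed duplicates and used featureCounts on the Ensembl genes. The submitters' notes name no versions. The featureCounts strand setting was not given in the sources used here; genes that overlap on the other strand are uncertain. The authors deposited raw counts, covering 27607 genes. Groups came from the labels.

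Genes over 1 CPM (TMM-scaled) in 5 or more heifers entered edgeR 4.0.16 (R 4.3.3) with the robust quasi-likelihood test, breed and fertility group as terms, total counts as library sizes and Benjamini-Hochberg adjustment over 13526 genes. A second model added the interaction. DESeq2 1.42.0 was an alternative. Log2 CPM used a prior count of 2, and the CPM of list and marker genes were taken back from it, unlike those of the members. Permutation tests used numpy 2.4.6 and scipy 1.17.1. The count test was tested on simulated data. In a close pair, neither heifer has a nearer heifer and the coefficient of variation, over genes with a mean CPM above 20, is below 0.5 of the median pairing.

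The members and lists were chosen with earlier results of these data known. Names, positions and lengths came from 1401 rows of the study's gene table, 1229 with a symbol, which are those with the smallest fertility p; the authors' fold changes and p-values there were not used. Named genes were all members, the 12 nearest named genes, and up to 3 genes per list with the smallest breed p, with the cell type markers that have a name. P-values treat the heifers as independent samples, which close pairs may not be. Alternatives were TMM factors, other filters, estimation that was not robust, DESeq2, each heifer left out, close pairs as blocks, 1 heifer per pair, covariates and, chosen after seeing the data, leaving out heifers 10 and 18.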

Additional observations from a re-analysis of the deposited data

Results flagged for a closer look

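In 8 of 36 sets of heifers (9 members in 4 groups), the highest heifer lay farther from the next than Dixon's 95% limit of 0.71 of the group's range allows for 5 heifers. Chance flags about 1 set in 20, and the sets share heifers. In Angus Fertile heifers it was heifer 18 for 5 members, with CDK1 at 28.5 CPM, CCNA2 at 49.15 CPM, CCNB2 at 31.5 CPM, AURKA at 26.1 CPM and BUB1 at 80.1 CPM. In Holstein Fertile heifers it was heifer 10 for BUB1, at 81.9 CPM. In Holstein Sub-Fertile heifers it was heifer 2, with CCNB2 at 18.2 CPM and CDC20 at 40.4 CPM. No Angus Sub-Fertile heifer stood apart by Dixon's limit for 7 heifers, which differs from that for 5.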

How the results depend on the processing

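For breed and for the interaction, 0 members were called under every alternative. Over all genes, DESeq2 called 10 genes for breed, against 0 with edgeR, and the fit with close pairs as blocks called 1 for the interaction. With each heifer left out in turn, the median log2 fold change of the members was −0.13 to 0.19 for breed, −0.48 to 0.30 for the interaction and 0.26 to 0.50 for fertility. The fertility median was 0.32 with 1 heifer per close pair, which keeps heifer 10, and 0.069 without heifers 10 and 18. It was −0.17 with close pairs as blocks. In that fit Fertile heifers 9 and 21 do not enter the contrast, and heifers 10 and 18 enter only through the breed term. The median percentile of the members' SD, 87.7, was 95.3 among 1000 genes of like abundance, 74.0 without heifers 10 and 18, and 81.5 to 88.7 with each heifer left out. The median correlation of 0.92 was 0.84 by Spearman, 0.81 without heifers 10 and 18, and 0.88 to 0.93 with each heifer left out. Genes correlated above 0.9 numbered 48 without heifers 10 and 18, against 138.

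Breed estimates near 0 changed sign. With the first principal component as a covariate they were −0.13 for CDK1, −0.027 for CCNA2, −0.074 for CCNB1, −0.041 for CCNB2, −0.037 for AURKA, −0.13 for AURKB, −0.15 for BUB1B and −0.096 for CDC20. With close pairs as blocks they were −0.039 for AURKA and −0.096 for BUB1B, and without heifers 10 and 18 −0.00044 for CDK1, −0.0020 for AURKA and −0.011 for AURKB. With each heifer left out they ran from −0.13 to 0.15 for CDK1, −0.045 to 0.31 for CCNA2, −0.078 to 0.26 for CCNB1, −0.14 to 0.19 for CCNB2, −0.13 to 0.15 for AURKA, −0.15 to 0.17 for AURKB, −0.12 to 0.21 for BUB1, −0.12 to 0.19 for BUB1B and −0.13 to 0.22 for CDC20. Leaving out heifer 10 gave a negative breed estimate for all 9. The interaction was −0.11 for CDK1 with close pairs as blocks and 0.19 for CDC20 with 1 heifer per close pair, and with each heifer left out 0.026 to 0.67 for CDK1 and −0.60 to 0.21 for CDC20. The cause of these changes was not tested. No paired analysis was possible because the labels give no number that pairs heifers across groups. The blocks used above are close pairs found from the counts. The share of promoters holding a motif was not run, since no promoter sequences were used here.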
